A study of Mus musculus with 61 samples.

Results

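RNA levels of 10 genes known from the making of forebrain inhibitory neurons were followed through mouse fetal brain: the homeobox genes Dlx1, Dlx2, Dlx5, Dlx6 and Nkx2-1, the LIM homeobox genes Lhx6 and Lhx8, the GABA-synthesis genes Gad1 and Gad2, and the neuropeptide gene Sst. They were taken by name from a table of 43346 gene identifiers, and all 10 were among the 18655 genes that reached 1 TPM (a transcript level corrected for length and scaled to the same total in every library) in at least 2 libraries. The series measured RNA in forebrain, midbrain, hindbrain and liver of fetal mice, at 8 stages from E10.5 (embryonic day 10.5) to P0 (the day of birth) in brain. No strain, allele or treatment is named, and the labels separate the groups by tissue and stage alone. Of 61 libraries, 15 came from forebrain, 16 each from midbrain and hindbrain and 14 from liver, 2 for each tissue and stage except forebrain at E10.5, which had 1. The labels number the libraries as replicates and name no animal or litter behind them, so p-values measure the spread between these libraries, which may be technical. A whole region was sampled, so a lower level can mean fewer cells of a type or less RNA per cell, and these cannot be told apart.

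Inhibitory interneurons of the mammalian cortex are born in the ganglionic eminences, swellings of the ventral forebrain, and migrate from there. Dlx genes are switched on in sequence as progenitors there leave the cell cycle. Nkx2-1 defines the medial eminence and induces Lhx6, which its migrating interneurons keep, and Lhx8, which is needed by cholinergic neurons of the basal forebrain. Gad1 and Gad2 encode the glutamate decarboxylases that make GABA in inhibitory neurons throughout the nervous system, and Sst marks a large class of interneurons that come from the medial eminence as well as neurons elsewhere in the brain.

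The regional markers fitted the labels in most brain libraries. The 8 forebrain markers summed to 281 to 742 TPM in forebrain libraries. At stages other than E15.5 they summed to 80.1 to 249.7 TPM in midbrain libraries and 8.41 to 52.7 TPM in hindbrain libraries. The 10 hindbrain and Hox markers summed to at most 5.33 TPM in forebrain. At E15.5 the other 2 regions went against their labels: the libraries labelled midbrain held 498 and 533 TPM of these markers and those labelled hindbrain 1.14 and 1.85 TPM, where other stages gave 0.4 to 10.4 TPM in midbrain and 137 to 682 TPM in hindbrain. The forebrain markers stood at 19.99 and 20.7 TPM in the E15.5 libraries labelled midbrain and at 161 and 169 TPM in those labelled hindbrain. Those E15.5 libraries of midbrain and hindbrain keep their labels here. Region averages, gene lists and correlations among the members are given with and without them, and single values at E15.5 stand as labelled. Averages and gene lists without them leave E15.5 out of the forebrain average as well. The libraries also split by Rps27, a ribosomal protein gene, into 22 brain libraries with 451 to 1247 TPM and 25 with 7.49 to 136 TPM. Forebrain was of the low class at E11.5, E13.5, E14.5, E16.5 and P0 and of the high class at E10.5, E12.5 and E15.5. A forebrain top at E12.5 or E15.5 thus falls at a high-class stage, where stage and class cannot be told apart.

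Promoter sequence was available from RefSeq (GRCm38.p6, the assembly of mm10) for 8 of the 10 genes, as 10 windows of 250 bases before to 50 bases after each start. The title of the series concerns DNA methylation, which in mammals falls mainly on CG dinucleotides, so stretches of 100 bases before the RefSeq start are shown for the window with the most CG among the members (Dlx2, 29 in the window), the one with the fewest (Lhx8, 4 in the window) and both GABA-synthesis genes (Gad1, 21 and Gad2, 14), against a median of 7 over 32851 RefSeq windows. Each is written 5′ to 3′ on the gene's strand, with CG in capitals. Counted from the RefSeq start, the stretches run from -100 to -1 in Dlx2, -199 to -100 in Lhx8, -187 to -88 in Gad1 and -222 to -123 in Gad2, and the Gad1 stretch lies inside the longer GENCODE model of that gene.
Dlx2, chr2:71546755-71546854, minus strand: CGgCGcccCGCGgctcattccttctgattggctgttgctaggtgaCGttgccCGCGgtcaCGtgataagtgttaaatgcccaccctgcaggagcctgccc
Lhx8, chr3:154330660-154330759, minus strand: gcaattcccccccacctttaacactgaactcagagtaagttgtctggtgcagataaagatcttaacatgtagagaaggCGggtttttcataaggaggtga
Gad1, chr2:70561942-70562041, plus strand: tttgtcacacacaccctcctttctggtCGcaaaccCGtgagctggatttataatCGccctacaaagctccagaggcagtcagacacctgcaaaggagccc
Gad2, chr2:22622105-22622204, plus strand: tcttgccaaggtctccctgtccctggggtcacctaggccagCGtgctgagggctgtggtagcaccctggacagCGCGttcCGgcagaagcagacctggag
The remaining windows held 27 CG in Dlx1, 16, 17 and 11 in the 3 windows of Lhx6, 13 in Sst and 12 in Nkx2-1. The homeodomain core TAATTA, searched on both strands, was in none of the 10 windows and in 5.29% of all windows. The palindrome TGACGTCA, the cyclic AMP response element by which the Sst promoter is known and which was looked for after the windows had been read, was in the Sst window only among the members and in 1.79% of all windows.
Sst, chr16:23890874-23890903, minus strand, motif in capitals: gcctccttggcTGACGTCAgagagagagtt

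Dlx1 and Dlx2 lie tail to tail on mouse chromosome 2 (mm10; Dlx1 71528113 to 71533981, plus strand; Dlx2 71543408 to 71546754, minus strand), with 9426 bases from the end of Dlx1 to the start coordinate of Dlx2. Both encode homeodomain transcription factors that act early, in progenitors of the ventral forebrain. Forebrain Dlx1 stood at 17.6 TPM at E10.5, 55.9 and 66.6 at E11.5, 104 and 133 at E12.5, 134 and 140.4 at E13.5, 107 and 98.2 at E14.5, 135 and 143 at E15.5, 113 and 95.1 at E16.5, and 58.3 and 83.6 at P0. The single E10.5 library was the lowest, and from E12.5 to E16.5 the level kept within a narrow band near its top. For Dlx2 the forebrain values were 16.2 TPM at E10.5, 35.0 and 38.4 at E11.5, 53.5 and 60.1 at E12.5, 52.3 and 57.8 at E13.5, 38.3 and 33.1 at E14.5, 41.5 and 43.2 at E15.5, 38.4 and 28.2 at E16.5, and 15.9 and 20.4 at P0. Its top fell at E12.5 and E13.5, and the P0 libraries lay about where the E10.5 library did. The antisense transcript Dlx1as overlaps Dlx1, and whether strand was used in counting is not given in the sources used here, so part of the reads of this pair may be exchanged.

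Dlx5 and Dlx6 form the matching pair on chromosome 6 (Dlx5 6877805 to 6882085, minus strand; Dlx6 6863334 to 6868568, plus strand; 9236 bases from the end of Dlx6 to the start coordinate of Dlx5). They act later than Dlx1 and Dlx2, in cells that leave the progenitor layer. Forebrain Dlx5 measured 11.4 TPM at E10.5, 18.3 and 18.8 at E11.5, 31.4 and 34.3 at E12.5, 33.8 and 35.9 at E13.5, 23.7 and 23.2 at E14.5, 35.6 and 36.6 at E15.5, 31.6 and 23.6 at E16.5, and 11.1 and 15.2 at P0. Both P0 libraries lay below every library from E11.5 to E16.5. Forebrain Dlx6 measured 5.85 TPM at E10.5, 14.2 and 14.4 at E11.5, 30.2 and 39.8 at E12.5, 35.8 and 35.6 at E13.5, 31.9 and 30.8 at E14.5, 38.2 and 33.8 at E15.5, 36.3 and 30.6 at E16.5, and 21.8 and 26.1 at P0, above the E11.5 libraries at every later stage. The antisense transcript Dlx6os1 overlaps Dlx6 with the same uncertainty of strand.

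Nkx2-1, the selector gene of the medial eminence and of part of the hypothalamus (chromosome 12, 56531958 to 56536908, minus strand), was highest at E12.5 in forebrain and then declined to birth. Its level was 23.3 TPM at E10.5, 29.9 and 32.3 at E11.5, 39.6 and 58.7 at E12.5, 31.2 and 34.1 at E13.5, 27.9 and 20.02 at E14.5, 16.9 and 16.3 at E15.5, 13.7 and 9.63 at E16.5, and 8.8 and 5.92 at P0. From E12.5 on each stage lay below the one before it, with no overlap of the libraries between neighbouring stages. No single one of these steps passed the test. E12.5 and E15.5 are of the high Rps27 class. Within the low class, E13.5 over E11.5 stood at 0.07 in log2(TPM + 1), which did not pass either.

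Lhx6 (chromosome 2, 36081953 to 36105408, minus strand) and Lhx8 (chromosome 3, 154306294 to 154330659, minus strand) began alike and parted. Forebrain Lhx6 was at 2.55 TPM at E10.5, 9.9 and 8.9 at E11.5, 23.8 and 37.3 at E12.5, 33.5 and 35.3 at E13.5, 34.9 and 26.0 at E14.5, 49.6 and 44.6 at E15.5, 41.5 and 35.0 at E16.5, and 33.4 and 34.0 at P0. Forebrain Lhx8 was at 2.8 TPM at E10.5, 15.3 and 11.6 at E11.5, 26.0 and 46.0 at E12.5, 33.6 and 27.0 at E13.5, 28.6 and 19.1 at E14.5, 17.6 and 17.9 at E15.5, 14.4 and 14.2 at E16.5, and 10.01 and 9.96 at P0. Lhx6 was highest at E15.5 and stayed high to birth, whereas Lhx8 was highest at E12.5 and by P0 lay below its E11.5 libraries. Both tops fell at stages of the high Rps27 class. Within the low class, Lhx6 in log2(TPM + 1) moved by -0.18 at E14.5 over E13.5, 0.33 at E16.5 over E14.5 and -0.17 at P0 over E16.5. None of these steps passed the test.

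Gad1 (chromosome 2, 70553072 to 70602014, plus strand) encodes the larger decarboxylase, spread through the cell, and Gad2 (chromosome 2, 22622205 to 22693874, plus strand) the smaller, found mainly at nerve terminals. Forebrain Gad1 was at 2.65 TPM at E10.5, 16.6 and 18.02 at E11.5, 36.8 and 38.5 at E12.5, 54.5 and 57.7 at E13.5, 70.3 and 71.8 at E14.5, 94.0 and 87.5 at E15.5, 119.9 and 109.7 at E16.5, and 134 and 142 at P0, without overlap between any neighbouring stages. Forebrain Gad2 was at 2.64 TPM at E10.5, 12.54 and 18.9 at E11.5, 34.7 and 47.1 at E12.5, 42.1 and 45.8 at E13.5, 40.4 and 39.2 at E14.5, 40.3 and 39.0 at E15.5, 35.9 and 33.7 at E16.5, and 26.7 and 25.6 at P0. It was at its top from E12.5 to E15.5 and lower in both P0 libraries than in any library of those stages. Gad1os, an antisense gene, overlaps Gad1, and reads of the pair may be exchanged.

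Sst, the gene of the peptide somatostatin (chromosome 16, 23889573 to 23890958, minus strand), spanned the widest range. Forebrain Sst was at 1.34 TPM at E10.5, 6.38 and 7.08 at E11.5, 45.2 and 50.5 at E12.5, 96.6 and 97.5 at E13.5, 117 and 92.4 at E14.5, 281 and 253 at E15.5, 188 and 160.2 at E16.5, and 200.3 and 194 at P0. Only E13.5 and E14.5 overlapped among neighbouring stages. All 10 genes changed over the forebrain stages by limma's moderated F test, where 51.9% of all genes tested did; the adjusted p ran from 1.94e-26 for Sst to 0.00532 for Dlx1.

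**Figure D1:**
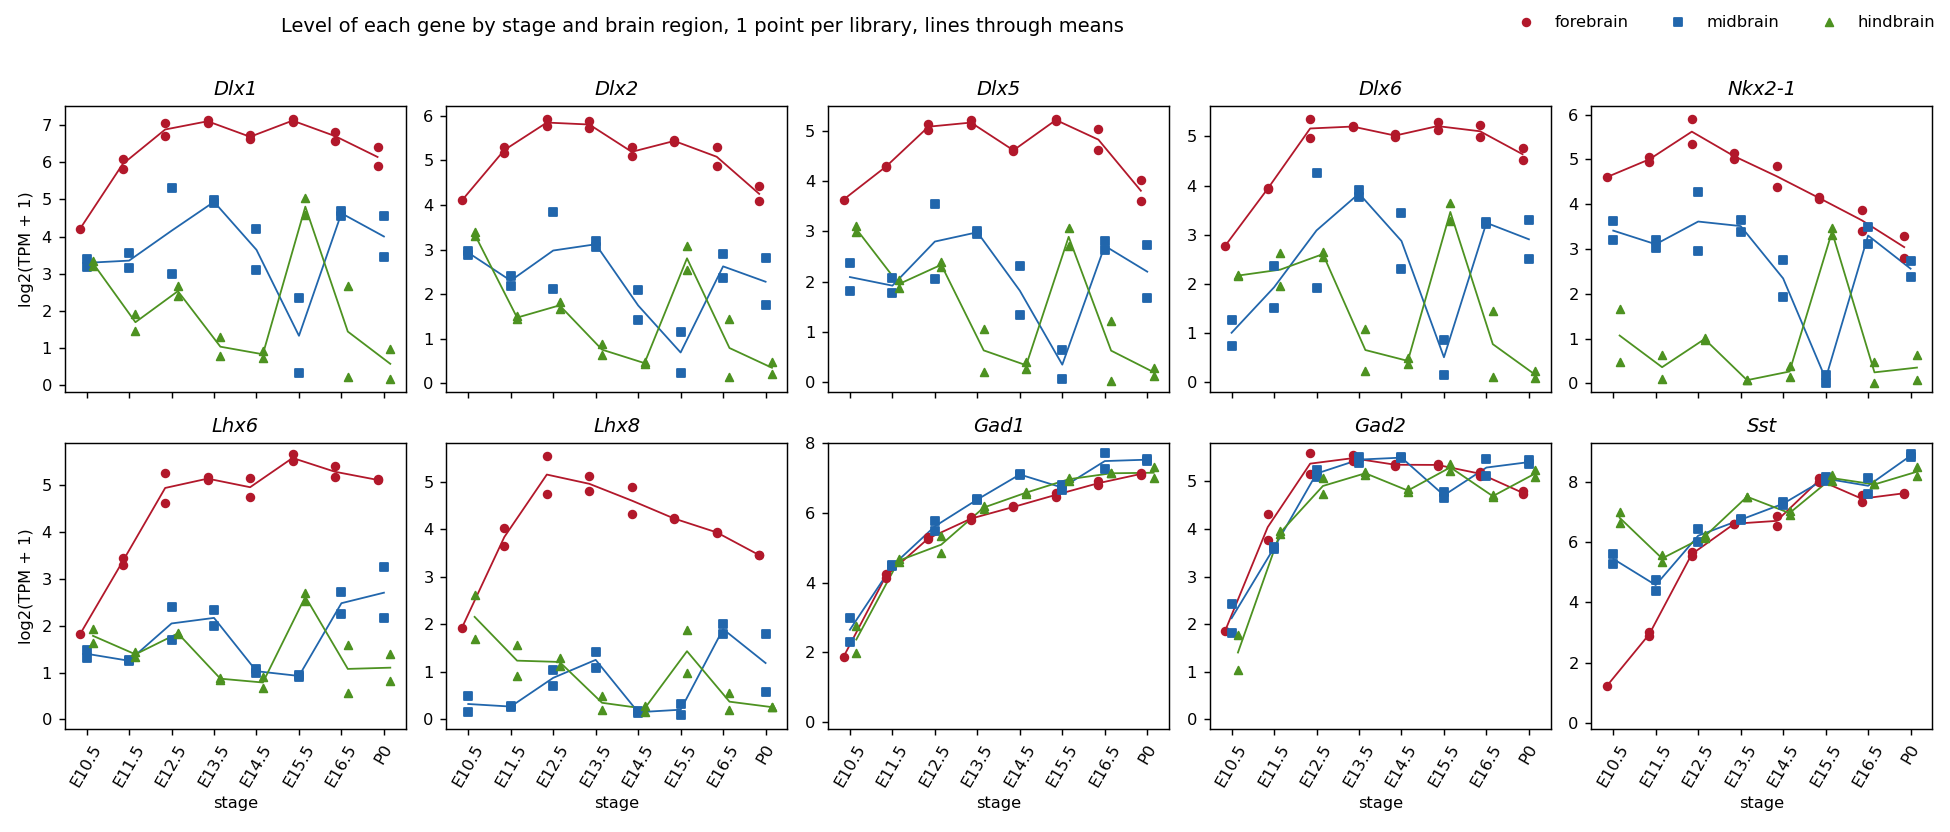
Level of each gene as log2(TPM + 1) against stage in forebrain (circles), midbrain (squares) and hindbrain (triangles), 1 point per library and lines through the means. The forebrain line runs above the others for Dlx1, Dlx2, Dlx5, Dlx6 and Lhx6, and the 3 regions run together for Gad1 and Gad2; the E15.5 points labelled midbrain and hindbrain trade places for the Dlx genes and Nkx2-1.

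Forebrain was set against midbrain on the average of log2(TPM + 1) over the 7 stages from E11.5 to P0. On this scale fold changes of low genes come out too small. A gene was called at an adjusted p under 0.05 and a difference of at least 1. In this comparison 7 of the 10 genes were higher in forebrain, none was lower, and Gad1, Gad2 and Sst were not called; of all genes tested 0.960% were called higher and 2.73% in either direction. Among all called genes 35.1% were higher in forebrain, and 47.3% were with quantile normalization. Lhx8, at a stage-averaged 20.8 TPM in forebrain and 0.99 TPM in midbrain, differed most (3.48 ± 0.11, SE, n = 14 libraries each, limma adjusted p = 1.43e-23). Next came Lhx6 at 3.11 ± 0.10 (32.0 TPM in forebrain, 2.97 TPM in midbrain), Dlx2 at 3.02 ± 0.14 (39.7 and 4.66 TPM), Dlx1 at 2.94 ± 0.21 (105 and 16.6 TPM), Dlx5 at 2.60 ± 0.13 (26.6 and 4.16 TPM), Dlx6 at 2.27 ± 0.17 (29.96 and 7.04 TPM) and Nkx2-1 at 1.80 ± 0.12 (24.6 and 6.98 TPM). The 3 genes not called stood at -0.48 ± 0.07 for Gad1 (75.1 TPM in forebrain, 108 TPM in midbrain), 0.06 ± 0.06 for Gad2 (34.4 and 34.1 TPM) and -0.67 ± 0.06 for Sst (128 and 192 TPM). Their adjusted p was 6.97e-08, 0.468 and 2.07e-11, so Gad1 and Sst missed the call by size alone. Without the E15.5 libraries of midbrain and hindbrain, and with E15.5 left out of the forebrain average too, the 7 calls held. The differences then ran from 1.43 for Nkx2-1 to 3.39 for Lhx8.

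Against hindbrain the same 7 genes were higher in forebrain, where 1.03% of all genes were called higher, 3.28% lower and 4.32% in either direction. Among all called genes 23.98% were higher, and 39.7% with quantile normalization. Dlx1 had the largest difference at 4.82 ± 0.21 (105 TPM in forebrain, 5.65 TPM in hindbrain, SE, n = 14 each, limma adjusted p = 1.79e-20). Dlx2 stood at 4.07 ± 0.14, Nkx2-1 at 3.64 ± 0.12, Lhx8 at 3.59 ± 0.11, Lhx6 at 3.53 ± 0.10, Dlx5 at 3.43 ± 0.13 and Dlx6 at 3.41 ± 0.17. Gad1 at -0.25, Gad2 at 0.22 and Sst at -0.79 were again not called. Leaving out the E15.5 libraries raised the Dlx1 difference to 5.24 and that of Nkx2-1 to 4.12. Both comparisons use the same forebrain libraries. They also take in stages at which the Rps27 class differed from forebrain: P0 in midbrain, and E13.5 and 1 P0 library in hindbrain.

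Midbrain lay between the other regions for several of these genes. Relative to hindbrain it was higher for Dlx1 (1.88 ± 0.21), Nkx2-1 (1.84 ± 0.12), Dlx6 (1.14 ± 0.17) and Dlx2 (1.05 ± 0.14; SE, n = 14 each, limma), 4 of 10, against 0.252% of all genes called higher and 0.97% in either direction. Dlx5 at 0.83, Lhx6 at 0.42 and Lhx8 at 0.11 fell below the size required and were not called. Leaving out 1 library at a time kept them above 0, at 0.72 to 0.94, 0.34 to 0.49 and 0.02 to 0.19. Without the E15.5 libraries the differences were 2.77 for Dlx1, 2.69 for Nkx2-1, 1.83 for Dlx6, 1.58 for Dlx2 and, now called, 1.39 for Dlx5. Lhx6 at 0.77 (limma adjusted p = 5.94e-07) and Lhx8 at 0.33 (adjusted p = 0.0225) then missed the call by size. Dlx2 lost its call, at 0.93, and Dlx6 at 0.98, without midbrain E12.5 replicate 1; Dlx2 also fell short without midbrain P0 replicate 1 (0.98), midbrain E15.5 replicate 2 (0.99) or the hindbrain E16.5 library without a number (0.96).

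**Figure D2:**
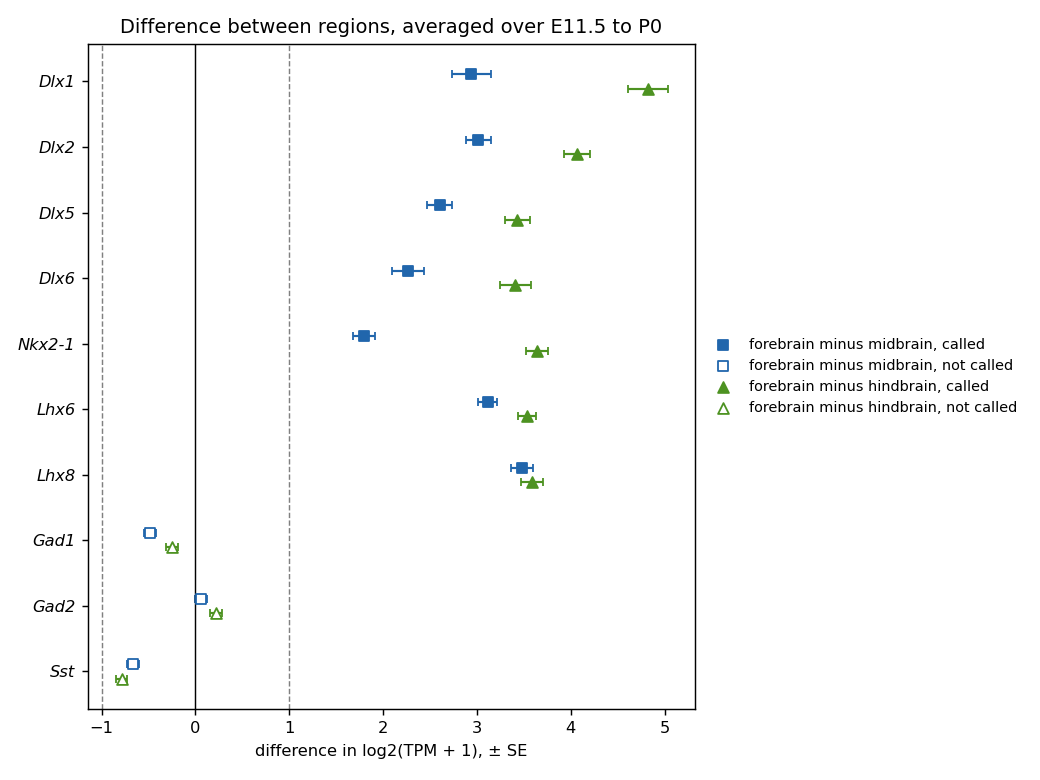
Difference in log2(TPM + 1) averaged over E11.5 to P0, ± SE, for forebrain minus midbrain (squares) and forebrain minus hindbrain (triangles); filled symbols are called, and dashed lines mark the size required. The 7 transcription factor genes lie right of 1 in both comparisons, and Gad1, Gad2 and Sst lie between -0.79 and 0.22.

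The midbrain average hid differences between the 2 libraries of a stage. Midbrain Dlx1 stood at 38.7 TPM in replicate 1 and 7.0 TPM in replicate 2 at E12.5, and at 17.4 and 7.48 TPM at E14.5. Dlx2, Dlx5, Dlx6 and Nkx2-1 were higher in the same library of both pairs. The 8 forebrain markers summed to 247 and 249.7 TPM in those E12.5 libraries and to 167 and 157 TPM in those of E14.5. In hindbrain at E16.5 Dlx1 stood at 5.32 and 0.16 TPM, and the forebrain markers summed to 34.7 and 12.95 TPM in these hindbrain libraries. The sample record of the library at 0.16 TPM gives P0, a stage at which hindbrain Dlx1 stood at 0.96 and 0.12 TPM. The part of forebrain tissue in these levels was not tested.

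Stage by stage, forebrain exceeded midbrain in 51 of 80 gene and stage comparisons and lay below it in 3, while of all genes 3.54% were called in either direction at E10.5, 2.7% at E11.5, 2.83% at E12.5, 4.42% at E13.5, 6.64% at E14.5, 8.23% at E15.5, 7.07% at E16.5 and 3.84% at P0. Dlx5, Dlx6 and Lhx8 were higher at all 8 stages, and Dlx1, Dlx2 and Lhx6 at every stage but E10.5. Nkx2-1 was higher from E10.5 to E15.5 and not called at E16.5 (13.7 and 9.63 TPM in forebrain, 10.3 and 7.59 TPM in midbrain; 0.34 ± 0.31) or P0 (8.8 and 5.92 TPM in forebrain, 5.69 and 4.2 TPM in midbrain; 0.48 ± 0.31). Of these only the E16.5 libraries overlapped. Gad1 and Gad2 were called at no stage in either direction by limma.

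Against hindbrain 49 of 80 comparisons were higher in forebrain and 2 lower, with 4.44% of all genes called at E10.5, 5.42% at E11.5, 5.71% at E12.5, 9.93% at E13.5, 9.47% at E14.5, 5.12% at E15.5, 8.42% at E16.5 and 4.81% at P0. At E13.5 both hindbrain libraries were of the high Rps27 class and both forebrain ones of the low class, so region and class cannot be told apart there. At E10.5 Dlx1 stood at 17.6 TPM in the forebrain library and at 9.2 and 8.27 TPM in hindbrain, Dlx2 at 16.2 against 8.87 and 9.46 TPM, and Dlx5 at 11.4 against 6.96 and 7.59 TPM; none of these was called. At E11.5 Dlx1 was at 55.9 and 66.6 TPM in forebrain, against 1.75 and 2.78 TPM in hindbrain. Dlx3, a relative known from the branchial arches, was at 3.46 TPM in the E10.5 forebrain library and at 2.71 and 3.65 TPM in E10.5 hindbrain, and at 0.82 TPM or less in every later forebrain library. The 14 branchial arch and craniofacial markers summed to 565 TPM in forebrain at E10.5 and to 505 and 495 TPM in hindbrain, with their highest sums at E12.5 (604 TPM in a forebrain library, 1090.2 TPM in a hindbrain library), and their part in the E10.5 Dlx levels was not tested. Nkx2-1 was already higher in forebrain at E10.5, at 23.3 TPM against 0.39 and 2.16 TPM in hindbrain (3.54 ± 0.38, SE, limma adjusted p = 6.25e-09, with the spread of that single forebrain library taken from the other groups). At E15.5, as labelled, Nkx2-1 was not called against hindbrain (16.9 and 16.3 TPM in forebrain, 8.88 and 10.01 TPM in the libraries labelled hindbrain; 0.75 ± 0.31).

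Sst ran the other way at the start of the series. At E10.5 it stood at 1.34 TPM in forebrain, 37.7 and 48.2 TPM in midbrain and 127 and 98.5 TPM in hindbrain. The forebrain library lay below all 4 others, and with 1 library in that arm the fit assumed that it varies like the other groups. The differences were -4.22 on the log2 scale against midbrain (adjusted p = 4.53e-17) and -5.59 against hindbrain (adjusted p = 1.25e-20, limma). At E11.5 forebrain at 6.38 and 7.08 TPM was still lower than midbrain at 26.1 and 20.02 TPM (-1.63 ± 0.17) and hindbrain at 39.9 and 46.7 TPM (-2.51 ± 0.17). From E12.5 to E16.5 no difference in Sst was called. At P0 forebrain Sst, at 200.3 and 194 TPM, was lower than in midbrain, at 452 and 486 TPM (-1.25 ± 0.17, limma adjusted p = 3.68e-07). The forebrain P0 libraries were of the low Rps27 class and the midbrain ones of the high class, so region and class cannot be told apart there, and the sample record of 1 of these midbrain libraries gives E16.5.

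**Figure D3:**
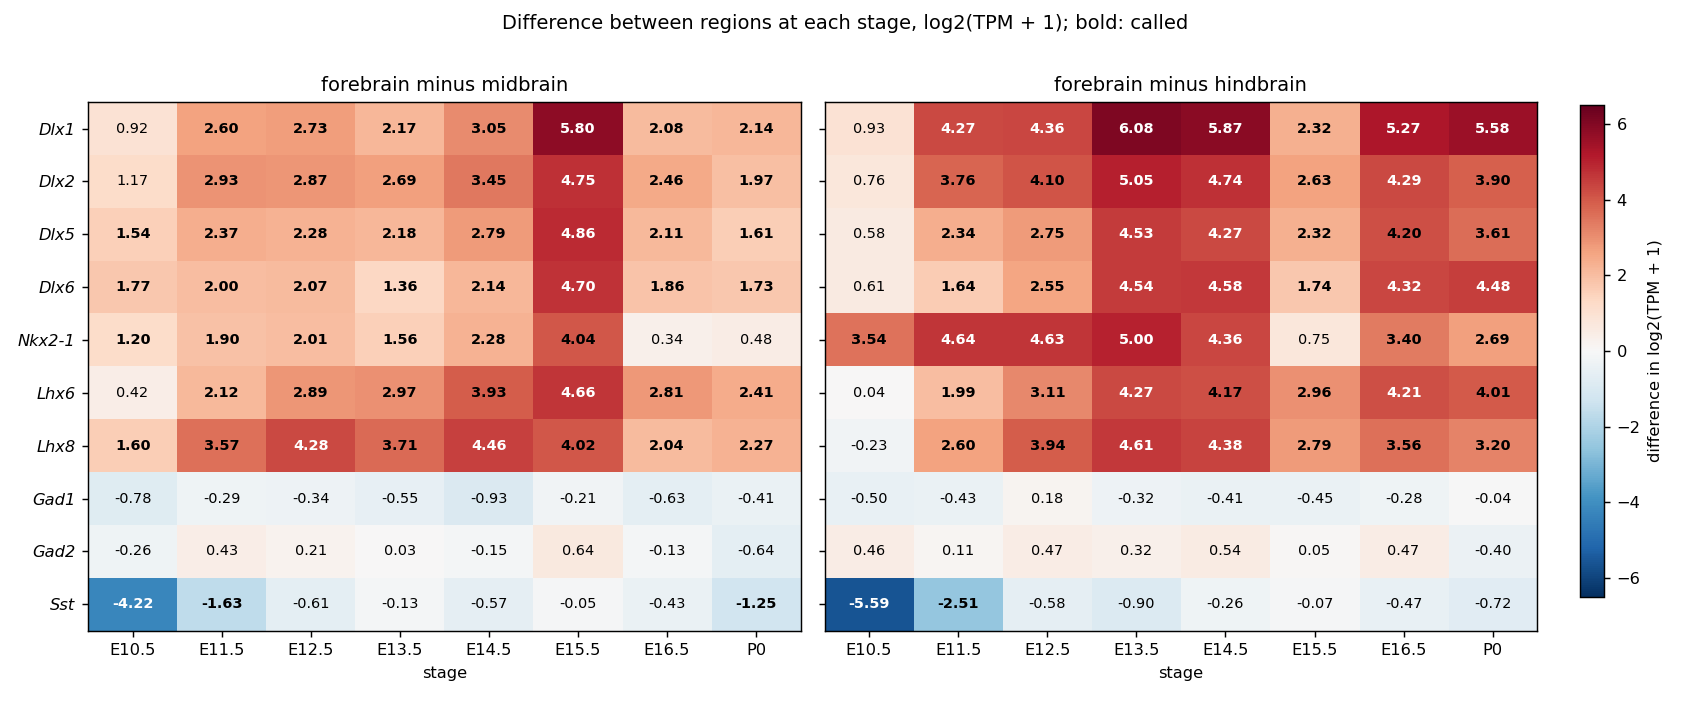
Difference in log2(TPM + 1) at each stage for forebrain minus midbrain (left) and forebrain minus hindbrain (right), with called values in bold. The E15.5 columns stand apart, with Dlx1 at 5.80 against midbrain and 2.32 against hindbrain as labelled, and Sst is lower in forebrain at E10.5 (-4.22 and -5.59).

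P0 was compared with E11.5 within each region. In forebrain, where both stages were of the low Rps27 class, 3 of the 10 genes were higher at P0 and 1 lower, against 19.2% of all genes called higher, 11.8% lower and 30.9% in either direction, so the members' share was near the background. Of all called genes 62.0% were higher, and 51.7% with quantile normalization. Sst stood at 200.3 and 194 TPM at P0, against 6.38 and 7.08 TPM at E11.5 (4.68 ± 0.17, SE, n = 2 each, limma adjusted p = 3.68e-23). Gad1, at 134 and 142 TPM at P0 against 16.6 and 18.02 TPM at E11.5, was higher by 2.92 ± 0.17 (adjusted p = 5.85e-17). Lhx6 was at 33.4 and 34.0 TPM at P0 against 9.9 and 8.9 TPM (1.74 ± 0.26, adjusted p = 3.26e-07). Nkx2-1 fell to 8.8 and 5.92 TPM at P0, against 29.9 and 32.3 TPM at E11.5 (-1.96 ± 0.31, adjusted p = 9.88e-07). The libraries of the 2 stages did not overlap for any of these 4 genes. Dlx1 (0.19), Dlx2 (-0.98), Dlx5 (-0.48), Dlx6 (0.70), Lhx8 (-0.38) and Gad2 (0.72) were not called; Dlx2 was called without forebrain E11.5 replicate 1 (-1.05) or P0 replicate 2 (-1.15), and Gad2 without E11.5 replicate 2 (1.003).

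In midbrain Lhx6 (1.45 ± 0.26), Gad1 (3.05 ± 0.17), Gad2 (1.80 ± 0.17) and Sst (4.30 ± 0.17; SE, n = 2 each, limma) were higher at P0, with 18.3% of all genes called higher and 33.4% in either direction. Midbrain P0 libraries were of the high Rps27 class and E11.5 libraries of the low class, so stage and class cannot be told apart there. Midbrain Lhx6 stood at 8.49 and 3.5 TPM at P0 against 1.37 and 1.4 TPM, and was not called without P0 replicate 1 (0.92). Giving the 4 columns whose header and sample record name different stages the stage of the record brought the midbrain count to 7.

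In hindbrain 3 Dlx genes were lower at P0, as were 11.8% of all genes, with 28% called in either direction. Dlx6 stood at 0.17 and 0.06 TPM at P0 against 5.18 and 2.88 TPM at E11.5 (-2.14 ± 0.44, SE, n = 2 each, limma adjusted p = 5.8e-05). Dlx5 was at 0.21 and 0.09 TPM against 3.08 and 2.66 TPM (-1.75 ± 0.35), and Dlx2 at 0.4 and 0.16 TPM against 1.83 and 1.73 TPM (-1.13 ± 0.36; -0.99, not called, without the P0 library that has no number). None of these libraries overlapped between the stages. Dlx1, at 0.96 and 0.12 TPM at P0 against 1.75 and 2.78 TPM, was not called (-1.12, adjusted p = 0.0703 by limma) but was without the E15.5 libraries of midbrain and hindbrain (adjusted p = 0.0494). Gad1 (2.52), Gad2 (1.24) and Sst (2.88) were higher at P0 in hindbrain, as were 16.2% of all genes; with the 4 columns at the stage of the record Gad2 stood at 0.96 and was not called.

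**Figure D4:**
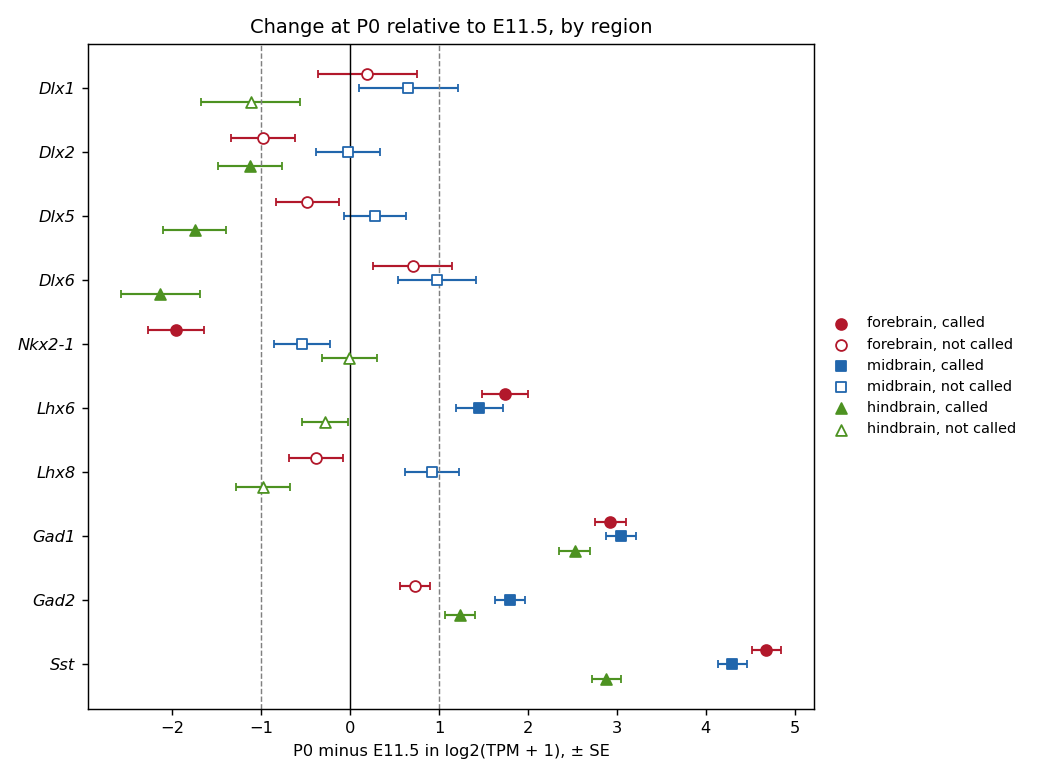
P0 minus E11.5 in log2(TPM + 1), ± SE, in forebrain (circles), midbrain (squares) and hindbrain (triangles); filled symbols are called. Gad1 and Sst lie right of 2.5 in every region, Nkx2-1 is called lower in forebrain only, and Dlx5 and Dlx6 are called lower in hindbrain only.

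Whether these changes differed between regions was tested directly. Between forebrain and midbrain 3 of the 10 changes differed, all toward a lower change in forebrain, against 1.73% of all genes lower and 5% in either direction (65.3% of called genes higher, 52.8% with quantile normalization). Gad2 had a change of 0.72 in forebrain and 1.80 in midbrain (difference -1.07 ± 0.24, SE, limma adjusted p = 0.000957; -0.80, not called, without forebrain E11.5 replicate 2). Nkx2-1 differed by -1.41 ± 0.44 (adjusted p = 0.0167) and was not called without forebrain P0 replicate 2 (-1.16), midbrain P0 replicate 1 (-1.23) or midbrain E11.5 replicate 2 (-1.33). Lhx8 differed by -1.30 ± 0.43 (adjusted p = 0.023) and lost its call without forebrain E11.5 replicate 1 (-1.11), forebrain P0 replicate 2 (-1.30), midbrain E11.5 replicate 1 (-1.31) or 2 (-1.29), or midbrain P0 replicate 1 (-0.70). Since the midbrain stages differ in Rps27 class, this difference carries that class too.

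Between forebrain and hindbrain 5 changes differed, 4 higher in forebrain and 1 lower, where 5.02% of all genes were higher, 2.94% lower and 7.96% either. Sst differed by 1.80 ± 0.23 (SE, limma adjusted p = 2.49e-07), Lhx6 by 2.02 ± 0.37 (5.16e-05), Dlx6 by 2.84 ± 0.62 (0.000533) and Nkx2-1 by -1.95 ± 0.44 (0.000746), and these 4 were called whichever library was left out, although Nkx2-1 was not with 0.1 in place of 1 added to TPM (-2.01, adjusted p = 0.0876). Dlx5 differed by 1.27 ± 0.50 with an adjusted p of 0.0475. It was not called without either E11.5 forebrain library (1.25 and 1.29), forebrain P0 replicate 2 (1.06), either E11.5 hindbrain library (1.19 and 1.35) or either P0 hindbrain library (1.34 for replicate 1 and 1.19 for the other).

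Between neighbouring forebrain stages 16 of 70 comparisons were called. At E11.5 relative to the single E10.5 library 7 genes were called, all higher (6.34% of all genes called): Gad1 (2.33), Gad2 (2.17), Lhx8 (1.91), Dlx1 (1.74), Sst (1.72), Lhx6 (1.55) and Dlx2 (1.13). At E12.5 relative to E11.5 6 were called, all higher (4.1% of all genes): Sst (2.66), Lhx6 (1.57), Gad2 (1.34), Lhx8 (1.31), Dlx6 (1.22) and Gad1 (1.08). The E10.5 arm is 1 library, so its spread was taken from the other groups. Within the low class, E13.5 over E11.5 was called (9.89% of all genes) for Sst (3.67), Lhx6 (1.77), Gad1 (1.64), Gad2 (1.45), Dlx6 (1.26) and Lhx8 (1.12). Later steps were called for Sst alone, at E13.5 over E12.5 (1.01; 4.86% of all genes called) and at E15.5 over E14.5 (1.35; 2.73%), and for Dlx5, lower at P0 than at E16.5 (-1.02 ± 0.35, limma adjusted p = 0.0149; 6.92%). No member was called by limma at E14.5 over E13.5 (0.761% of all genes) or E16.5 over E15.5 (1.28%), although Sst had an adjusted p of 0.00725 in the last of these (-0.62). All steps up to E16.5 cross between the Rps27 classes except E14.5 over E13.5. Within the low class Sst at E16.5 over E14.5 stood at 0.74, not called (1.99% of all genes).

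Ratios within a library do not depend on the scaling between libraries. Gad1 over Gad2 was 1.004 in the forebrain E10.5 library and 5.03 and 5.53 at P0, with 0.82 to 1.33 at E11.5 and E12.5, 1.30 and 1.26 at E13.5, 1.74 and 1.83 at E14.5, 2.33 and 2.24 at E15.5 and 3.34 and 3.26 at E16.5. Each stage from E13.5 on lay above the one before. In midbrain the ratio was already 1.89 and 1.94 at E11.5 and reached 4.21 and 4.67 at P0, so the P0 values of forebrain lay above those of midbrain. Those P0 libraries differ in Rps27 class, low in forebrain and high in midbrain. In hindbrain the ratio was 5.60 and 5.68 at E16.5, above forebrain at P0, and 4.75 and 3.45 at P0. Dlx1 over Dlx2 was 1.09 at E10.5 and 3.66 and 4.09 at P0 in forebrain, and 1.39 and 1.26 at E10.5 and 3.72 and 4.22 at P0 in midbrain. Dlx5 over Dlx6 moved the other way in forebrain, from 1.95 at E10.5 through 1.29 and 1.31 at E11.5 to 0.51 and 0.58 at P0. In midbrain it was 2.94 in E10.5 replicate 1 and 0.63 and 0.47 at P0, so neither Dlx trend was particular to forebrain. Lhx6 over Lhx8 in forebrain was 0.65 and 0.77 at E11.5, 0.997 and 1.31 at E13.5, 2.82 and 2.49 at E15.5 and 3.34 and 3.41 at P0. These ratios are descriptions and were not tested.

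**Figure D5:**
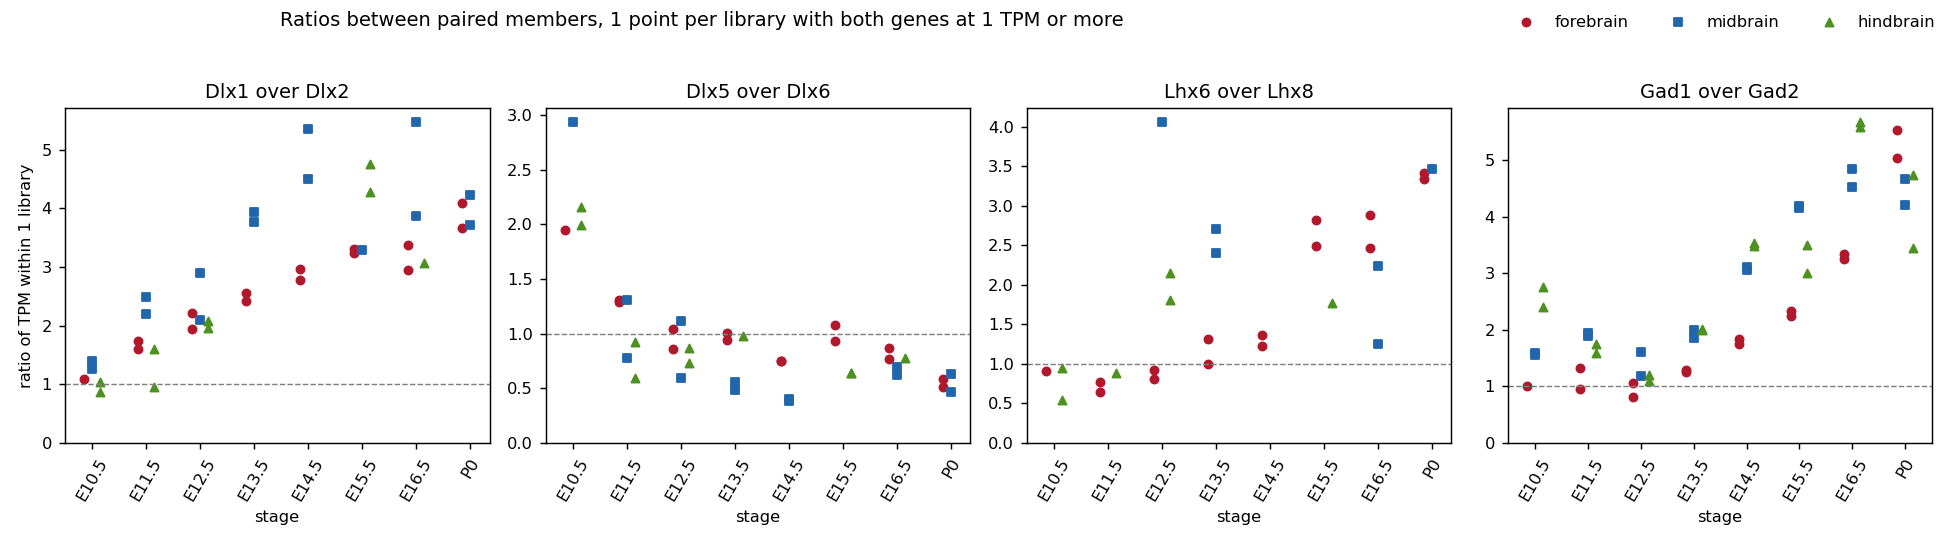
Ratio of TPM within a library for 4 pairs of members against stage, for libraries with both genes at 1 TPM or more in forebrain (circles), midbrain (squares) and hindbrain (triangles). In forebrain Gad1 over Gad2 reaches 5.03 and 5.53 at P0, and Dlx5 over Dlx6 is at 0.51 and 0.58 there.

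The pattern of the members was compared over the 24 means of brain region and stage. Pairwise Pearson correlations of log2(TPM + 1) were 0.90 to 0.98 among the 4 Dlx genes, 0.94 between Lhx6 and Lhx8, 0.82 to 0.90 between Nkx2-1 and the Dlx genes, and 0.72 and 0.73 between Nkx2-1 and Lhx6 and Lhx8. Gad1 correlated with Gad2 at 0.89 and with Sst at 0.80, Gad2 with Sst at 0.59, and Gad1 with Dlx1 at 0.01. Over the 22 means left without midbrain and hindbrain at E15.5, Nkx2-1 stood at 0.80 to 0.90 with the Dlx genes, Gad1 at 0.89 with Gad2 and at 0.04 with Dlx1. The points share libraries, regions and stages, so these values describe the pattern and carry no p. Among the 3 genes most like Dlx1 over these means were its antisense transcript Dlx1as (0.96) and Dlx6os1 (0.95), and among those most like Dlx2 were the cortical regulators Emx1 (0.94) and Fezf2 (0.94). The gene most like Dlx6 was Sp9, a zinc-finger regulator of the eminences (0.95), for Nkx2-1 Nr2e1 (0.97), a nuclear receptor of forebrain progenitors, for Lhx6 Dlx1as (0.95), for Lhx8 Trp73 (0.96), for Gad1 Inpp5f (0.99), for Gad2 Fam214a (0.97) and for Sst Ndufa4l2 (0.94).

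Of the 3 Dlx relatives and antisense transcripts tested, 2 were higher in forebrain than in midbrain (median 3.37), namely Dlx1as (3.53 ± 0.17) and Dlx6os1 (3.37 ± 0.16). Of 22 regulators of young interneurons and migration, 3 were higher in forebrain than in midbrain and 1 lower (median 0.24, against -0.04 over all genes), among them the zinc-finger genes Sp8 at 7.25 TPM in forebrain and 2.18 TPM in midbrain (1.38 ± 0.07) and Sp9 (1.24). Sox11 and Nr2f1, abundant regulators of young neurons in general, stood at 0.61 and 0.26, not called. Of 16 regulators of ventral telencephalic progenitors 3 were higher and 2 lower (median -0.25): the lateral eminence gene Gsx2 (2.22) and Vax1 (1.82) were among those higher, and Otx2 (-1.78), also a midbrain gene, was lower. Among 13 selector genes of midbrain and hindbrain GABAergic neurons none was higher and 10 were lower in forebrain (median -2.11), with Gata3 at 1.18 TPM in forebrain and 26.4 TPM in midbrain (-3.60 ± 0.10) and Sox14 (-3.31), Tal1 (-3.03) and Tal2 (-2.83) behind it. Against hindbrain the same list had 10 lower (median -2.09), led by Pax2 (-3.90), Pax8 (-3.77) and Lbx1 (-3.31). Without the E15.5 libraries of midbrain and hindbrain these lists had the same counts, with medians against midbrain of 3.07 for the Dlx relatives, 0.23 for the young interneuron list, -0.29 for the progenitor list and -1.75 for the selectors, which had -1.82 against hindbrain. Of 8 genes for the synthesis, packaging, uptake and breakdown of GABA, 1 was lower than in midbrain (Slc6a11, a glial GABA transporter, -1.26, and -1.01 without E15.5) and none higher. Of 19 later interneuron subtype genes, 1 was higher in forebrain than in midbrain and 3 lower. Against hindbrain none of these was higher and 4 were lower. Without the E15.5 libraries the subtype list had 1 higher and 2 lower against midbrain, and none higher and 6 lower against hindbrain.

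The same lists were read at P0 relative to E11.5 in forebrain, where 19.2% of all genes were higher and 11.8% lower. GABA handling genes were higher in 6 of 8 cases (median 1.97, against 0.02 over all genes), among them the transporters Slc6a11 (5.62) and Slc6a13 (3.96) and Slc32a1, which loads GABA into vesicles (37.9 and 35.3 TPM at P0, against 7.01 and 7.11 TPM at E11.5; 2.22 ± 0.14). Later interneuron subtype genes were higher in 14 of 19 cases (median 2.21), with the peptide genes Npy (5.68) and Cck (4.81), Nos1 (3.46) and the calcium-binding protein gene Calb2 (2.91); Sncg (0.01) and Lamp5 (0.23) were not called. Of 16 progenitor regulators 9 were lower and 1 higher (median -1.20): Gsx2 at -2.97 and Gadd45g at -2.47 were among those lower, and Olig1, which also marks oligodendrocyte precursors, was higher (3.55). Young interneuron genes had 9 higher and 3 lower of 22, with Nxph1 (3.23) and Npas1 (3.19) higher. Of 18 genes of striatal projection neurons, the other GABAergic output of the ventral forebrain, 10 were higher (median 1.26), led by Ppp1r1b (5.26). In midbrain and hindbrain over these stages, GABA handling genes were higher in 6 and 7 of 8 cases. Later subtype genes were higher in 11 and 14 of 19, with 18.3% and 16.2% of all genes higher. Progenitor regulators were lower in 8 and 5 of 16 and higher in 4 and 2. The rises in GABA handling and subtype genes were thus not particular to forebrain. Over the same stages in forebrain 9 of 14 branchial arch and craniofacial markers and 7 of 8 erythroid markers were lower, and 5 of 8 hepatocyte, 5 of 7 microglia and 4 of 7 choroid plexus markers higher. The part of these other tissues in the members' levels was not tested.

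The 17 hypothalamic and preoptic markers, which bear on Nkx2-1 since it is also a hypothalamic gene, summed to 21.9 to 115 TPM in forebrain libraries, 50.5 to 174 TPM in midbrain and 42.3 to 178 TPM in hindbrain. At stages other than E15.5 they summed to 75.2 to 174 TPM in midbrain and 42.3 to 96.7 TPM in hindbrain. In forebrain they stood at 114 and 53.9 TPM at P0, where Nkx2-1 was at 8.8 and 5.92 TPM, and at 80.4 and 92.5 TPM at E11.5. Of other tissues that use Nkx2-1, the 8 thyroid and lung markers summed to 0.57 to 3.17 TPM in forebrain, 2.62 to 22.6 TPM in midbrain and 3.72 to 32.6 TPM in hindbrain. At stages other than E15.5 the sums were 2.62 to 8.13 TPM in midbrain and 8.77 to 32.6 TPM in hindbrain. At most 2 of these 8 markers reached 1 TPM in any brain library. The list includes Pax8, which is also among the GABAergic selector genes above. The 10 pituitary markers summed to 0.32 to 14.1 TPM in forebrain, 7.26 to 45.05 TPM in midbrain (14.01 to 45.05 TPM without E15.5) and 5.29 to 32.4 TPM in hindbrain. Their part in the Nkx2-1 levels was not tested. In liver, sampled from E11.5, all 10 genes were at 1.84 TPM or less, the top value being Lhx6 at P0.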

How the data were processed

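RNA from fetal forebrain, midbrain, hindbrain and liver was purified with a lipid tissue kit and made into stranded poly(A) libraries, per the labels' protocols. The authors deposited TPM values per gene; STAR 2.4.0k, RSEM 1.2.23 and mm10 appear in the submitters' processing notes, and the strand setting of counting is not given in the sources used here. Gene symbols were matched from GENCODE M21 for 42462 of 43346 identifiers. TPM keeps no depth, so the depth is unknown; columns summed to 997627 to 1000000, and 13780 to 15561 genes reached 1 TPM per brain library. No 2 columns were identical. For 4 libraries, 1 per stage (E16.5, P0) in midbrain and in hindbrain, header and sample record disagree on the stage. They were kept at the header's stage and carry no number.

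The 18655 genes that reached 1 TPM in 2 libraries were tested on log2(TPM + 1) with limma 3.58.1 in R 4.3.3, with 1 mean per tissue and stage over all 61 libraries (30 residual degrees of freedom). P-values were adjusted over all genes by Benjamini-Hochberg, and a call needed an adjusted p under 0.05 and a log2 difference of at least 1. The fit was tested on simulated data. All members are described; of each list, up to 4 called genes of largest change and up to 2 abundant genes not called could be named, and for each member its 3 most alike genes. The members and lists were chosen with earlier results of these data known. Alternatives were another pseudocount, no filter, other scalings, brain libraries only, a replicate block, the 4 columns left out or moved, E12.5 or E15.5 left out, and each library left out; those on library class (Rps27 at 300 TPM) were added after the data were seen, as were the gene lists and correlations without E15.5. Same-numbered libraries deviated together over 0.1 in 27 of 325 pairs of groups, so the numbers were not taken as pairs. Comparison of protein sequences was not done here, and some genes that the naming rule selected are not reported here.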

Additional observations from a re-analysis of the deposited data

Results flagged for a closer look

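In 8 cases a gene's difference between P0 and E11.5 was itself different between regions by limma's test of the difference, with 2 libraries per region and stage. Between forebrain and midbrain these were Nkx2-1 (-1.41, adjusted p = 0.0167), Lhx8 (-1.30, adjusted p = 0.023) and Gad2 (-1.07, adjusted p = 0.000957). Between forebrain and hindbrain they were Dlx5 (1.27, adjusted p = 0.0475), Dlx6 (2.84, adjusted p = 0.000533), Nkx2-1 (-1.95, adjusted p = 0.000746), Lhx6 (2.02, adjusted p = 5.16e-05) and Sst (1.80, adjusted p = 2.49e-07). Negative values mean that the change from E11.5 to P0 was lower in forebrain. Both midbrain P0 libraries and 1 of the hindbrain P0 libraries were of the high Rps27 class, while the E11.5 libraries were of the low class. Only hindbrain at P0 held libraries of both classes. A fit with class as a term takes the class effect from those 2 libraries alone, so the part of class in these differences was not tested.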

How the results depend on the processing

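The count of members called stayed at 7 for forebrain against midbrain under every alternative run, and at 7 against hindbrain except over the low-class stages (8, with Sst at -1.08). The count for P0 against E11.5 in midbrain was 7, against 4, with the 4 columns at the stage of the sample record. Midbrain against hindbrain gave 2, against 4, over the high-class stages E12.5 and E15.5 as labelled. Those 2, Dlx5 (-1.04) and Dlx6 (-1.24), were lower in midbrain, whereas all 4 had been higher, so none of the 4 held in its direction. Only hindbrain at P0 held libraries of both classes. A fit with class as a term rests on those 2 libraries and cannot test class in other groups. With that term the differences of change between forebrain and midbrain gave 1, against 3. Leaving out 1 library at a time gave 1 to 4 for those differences and 2 to 4 for midbrain against hindbrain. These values turned sign. Dlx2 in midbrain, P0 against E11.5, was 0.10 with median-of-ratios scaling, 0.49 with a replicate block, 0.50 without the 4 columns, 0.55 at the record's stage and 0.25 with class as a term (-0.55 to 0.50 with a library left out). The Lhx6 difference between forebrain and midbrain changes was -0.0718 with 0.1 added to TPM, -0.24 with the block, -0.25 without the 4 columns and -0.28 with class (-0.25 to 0.82). Nkx2-1 in hindbrain was 0.0166, 0.23, 0.27 and 0.27 with median-of-ratios scaling, block, without the 4 columns and with class (-0.29 to 0.27), and in midbrain 0.0161 with class. The Dlx2 difference between forebrain and hindbrain changes was -0.0042 with median-of-ratios scaling (-0.0274 to 0.31), and Gad2 in forebrain against midbrain -0.0421 without E15.5. Over E12.5 and E15.5, midbrain against hindbrain was -0.93 for Dlx1, -0.44 for Dlx2, -1.04 for Dlx5, -1.24 for Dlx6, -0.33 for Nkx2-1, -0.74 for Lhx6, -0.78 for Lhx8, -0.16 for Gad2 and 0.0065 for Sst. This average takes in the E15.5 libraries whose markers went against their labels. Mean Dlx1 was 22.9 TPM in midbrain and 4.79 TPM in hindbrain at E12.5. At E15.5 as labelled it was 2.145 and 27.3 TPM. Lhx8 was lower in midbrain at E12.5 too (0.845 against 1.315 TPM). With a library left out, P0 against E11.5 gave -0.0647 to 0.45 for Dlx1 in forebrain and -0.25 to 0.80 for Dlx5 in midbrain, and the differences of change between forebrain and midbrain -1.0007 to 0.0808 for Dlx1 and -0.70 to 0.15 for Dlx6. The replicate block, a number shared without evidence of pairing (correlations -0.63 to 0.32, median 0.00327), gave 6 midbrain calls and 3 in midbrain against hindbrain. With 0.1 added to TPM, Nkx2-1 lost its call in the differences of change against midbrain (adjusted p = 0.25) and hindbrain (adjusted p = 0.0876). The causes were not tested.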
